A study of Equus caballus with 14 samples.

Results

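The genes described here were transcripts present in every endometrial biopsy of the series and near zero in the embryos. They were chosen by their measured levels, given as CPM, the counts of a gene per 1000000 counts of its library. A gene had to reach at least 10 CPM in each of the 9 endometrium libraries, which 8683 of the 26740 genes did, and the 150 of these with the lowest maximum CPM over embryos 2 to 5 were taken. The 8683 genes are called the expressed set below. Since these values made the choice, the contrast between embryo and endometrium is given as a description without a test. The levels in embryo 1 played no part in the choice. The change in pregnancy did not rank the genes, but the minimum of 10 CPM applied to cyclic and pregnant biopsies alike. Genes near zero in either group were therefore left out.

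The samples came from mares on day 13 after ovulation and formed 3 groups, cyclic endometrium (4 libraries), pregnant endometrium (5 libraries) and embryos (5 libraries). Per the study's methods, Warmblood mares went through a pregnant cycle, with insemination, and an unbred control cycle, and ovulation was induced with hCG in both. Each mare thus served as her own control, although the cyclic sample of mare 5 was of low quality and was not sequenced, so that 4 mares gave a pair. The sample labels hold replicate numbers only, and equal numbers were taken as the same mare. All statements on single mares rest on this assumption. In the pregnant cycle the biopsy was taken after the uterus had been flushed to recover the embryo. The methods do not state whether the uterus was also flushed in the control cycle. Capsule and yolk sac fluid had been removed from the embryonic tissue.

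The endometrium of the mare is made of a luminal epithelium, branching glands, a stroma of fibroblasts, blood and lymph vessels and resident leukocytes. Under progesterone its glands secrete histotroph, the mixture of proteins and nutrients that feeds the conceptus while it still moves freely in the uterus. The embryo at this stage is a capsule-bound vesicle of trophoblast, endoderm and early mesoderm, so that many products of differentiated maternal tissue have no counterpart in it. In whole tissue, fewer cells of a type and less RNA per cell cannot be told apart. The deposited files do not pair the Ensembl identifiers with symbols, and the gene table used here matched 0 of the 26740, so that the roles of the genes are not given here and the labelled tissues were not checked against defining markers. Identifiers are printed for 2 genes that rose and 2 that fell in pregnancy, and the others are described by their rank.

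Endometrium libraries held 21.8 to 46.9 M counts (M stands for 1000000) and embryo libraries 23.5 to 240 M. Embryo 1 stood apart, since its 10 most counted genes took 91.7% of the counts, against 17.5% to 33.9% in embryos 2 to 5, and 3.69 M counts were left for all others. Among the biopsies, cyclic sample 3 stood apart for the genes described here, with a median of 29.7 CPM against 36.7 to 45.8 CPM in the other 8 libraries. Spread, order and principal components are therefore also given without cyclic sample 3, and levels in embryo 1 on either denominator.

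In the endometrium the 150 genes were of moderate abundance. Their mean level over the 9 libraries ranged from 15.6 to 516 CPM with a median of 43.4 CPM, against a median of 54.7 CPM over the expressed set, whose most abundant gene reached 22263 CPM. A mean of over 100 CPM was measured for 27 of the 150 and of over 200 CPM for 10. Together they took 1.09 ± 0.047% of the counts of a biopsy (SD, n = 9). The groups overlapped in this sum, which was 0.987% to 1.15% in the 4 cyclic and 1.09% to 1.15% in the 5 pregnant samples. Cyclic sample 3 had the lowest share, and the other cyclic samples had 1.08% to 1.15%. The smallest count of any of these genes in a biopsy was 278, so counting error was small against the differences between biopsies.

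**Figure D1:**
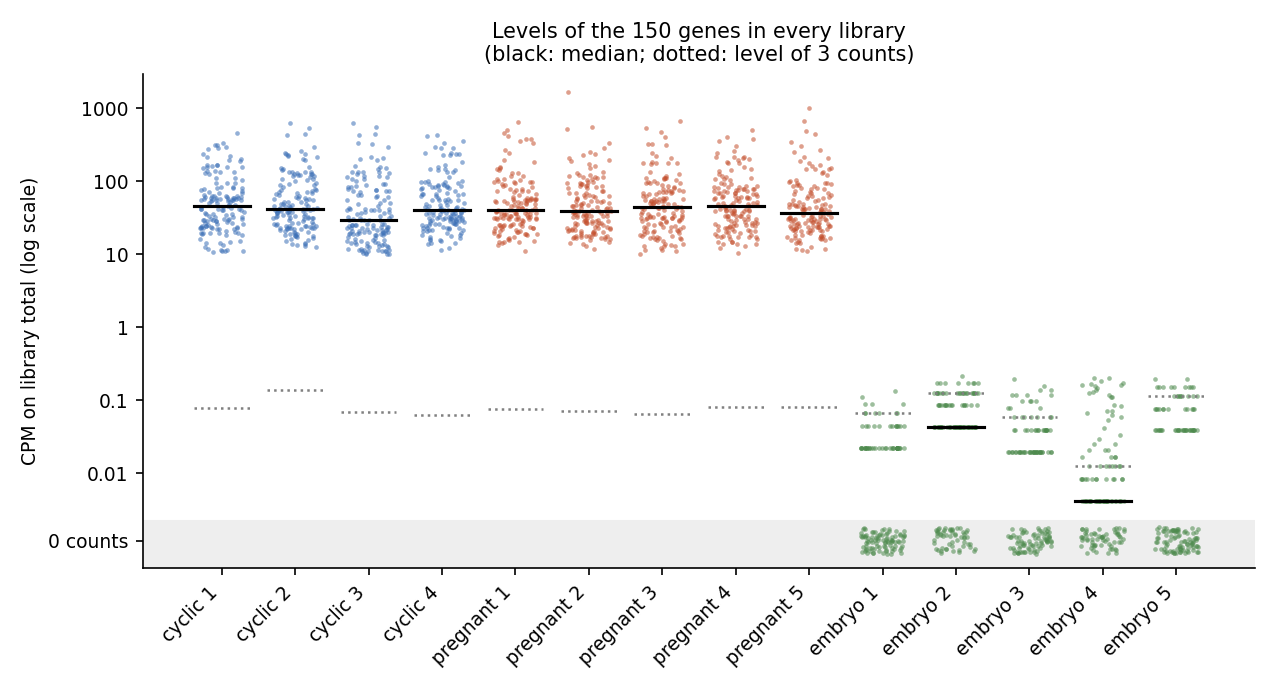
Level of each of the 150 genes in every library, as CPM on a log axis, with 1 point per gene, the black line at the median where it is above 0 and the dotted line at the level of 3 counts. Biopsies lie above 10 CPM by the choice of the genes, embryos 2 to 5 lie at or below 0.213 CPM by the same choice, and embryo 1, which was not used for it, reaches at most 0.135 CPM.

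The most abundant of these genes had 214, 639, 635 and 354 CPM in cyclic samples 1 to 4 and 653, 518, 545, 405 and 679 CPM in pregnant samples 1 to 5. Its groups overlapped, and the lowest value was that of cyclic sample 1. The next in rank was ENSECAG00000008979, which owed its mean of 424 CPM to the pregnant samples and is described with the changes in pregnancy. Genes ranked 3 to 10 had means between 239 and 356 CPM, and their highest value exceeded their lowest by 2.21-fold to 21.2-fold. The 10 most abundant genes held 29.8% of the counts on all 150.

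The order of the genes by level was not fixed. Only 1 gene was among the 10 most abundant of the 150 in all 9 biopsies, while 23 were so in at least 1 of them. Across the 150 genes, which are not independent replicates, the levels of 2 pregnant samples correlated with a median Spearman coefficient of 0.812 (10 pairs, 0.722 to 0.859). For 2 cyclic samples the median was 0.659 (6 pairs, 0.359 to 0.723). Without cyclic sample 3 it was 0.680 (3 pairs, 0.642 to 0.723). The order of these genes thus differed more among cyclic samples with or without that library, as a description with no test.

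In embryos 2 to 5, the libraries that chose the genes, 16 of the 150 had no counts at all, and 97 stayed at or below 0.1 CPM. The maximum was set by embryo 2 for 70 genes, by embryo 3 for 18, by embryo 4 for 22 and by embryo 5 for 24. Embryo 2 had the smallest total, and 1 count there equals 0.0426 CPM. At the limit, the genes ranked 148 and 149 both reached 0.200 CPM with 48 counts in embryo 4, and the gene ranked 150 reached 0.213 CPM with 5 counts in embryo 2. The first gene left out had the same 5 counts and 0.213 CPM and lost the place by its lower endometrium level of 198 CPM, against 516 CPM. Embryo 4, with its greater depth, was the only embryo in which more than 1 of the genes reached 10 counts, namely 24 genes. "Absent" thus means below 0.213 CPM, not without any read, and 13 of the 150 had 0 counts in all 5 embryos. A count of 0 allows a level of up to 3 counts, which is 0.0125 to 0.128 CPM in embryos.

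Embryo 1 took no part in the choice of the genes. It held 102 counts on the 150, a share of 0.000229% of its counts (95% Wilson interval 0.000189 to 0.000278), lower than the 0.000347% to 0.000783% in embryos 2 to 5. Of the 150 genes, 91 had no counts, 48 had 1 or 2 and 11 had 3 or more (7.33%). In the same library 56.2% of the expressed set had 3 or more counts, against 97.0% to 98.2% in embryos 2 to 5. No gene was above the limit of 0.213 CPM in embryo 1, where the highest reached 6 counts or 0.135 CPM.

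The denominator decides how low that share appears. Relative to the 3.69 M counts outside its 10 most counted genes, embryo 1 had a share of 0.00277% (95% Wilson interval 0.00228 to 0.00336). Computed in the same way, it was 0.000422% to 0.00119% in embryos 2 to 5 and 1.19 ± 0.054% in endometrium (SD, n = 9). On this scale embryo 1 was therefore the highest of the embryos, whereas on library totals it was the lowest. The endometrium share exceeded that of embryo 1 4777-fold on library totals (95% Poisson interval 3935 to 5858, counting error of the embryo only) and 430-fold outside the 10 most counted genes (354 to 527). On this denominator 1 count equals 0.271 per 1000000, so that all 59 genes with a count lay above 0.213 and the limit could not be applied at this depth.

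The counts in embryo 1 fell mostly on genes that were abundant in the endometrium. The 50 most abundant of the 150 held 69 of the 102 counts, 67.6% (95% Wilson interval 58.1 to 75.9). The 50 in the middle held 20 counts and the 50 least abundant held 13. In biopsies the 50 most abundant held 68.7 ± 2.51% of the counts on the 150 (SD, n = 9), so the share in embryo 1 was within the range of 63.9% to 72.2% of the biopsies. In embryos 2 to 5, where the choice itself held down the counts, they held 56.0%, 63.8%, 34.3% and 48.8%. The 95% Wilson intervals were 48.8 to 63.0, 56.5 to 70.6, 31.1 to 37.5 and 40.2 to 57.5. Those of embryos 2 and 3 overlapped the interval of embryo 1, so a high share was not particular to embryo 1. Of the 11 genes with 3 or more counts in embryo 1, 10 belonged to the 50 most abundant. The genes ranked 8, 10, 4 and 11 in the endometrium had 5, 4, 4 and 4 counts. The gene with 6 counts ranked 21 in the endometrium, where its level was 331 CPM in cyclic sample 1 and 79.2 CPM in pregnant sample 1, and embryos 2 to 5 had 2, 4, 1 and 0 counts of it. The Poisson interval of 6 counts reaches from 2.20 to 13.1, so single genes could not be ranked within this library. Spearman coefficients between embryo counts and mean endometrium CPM across the 150 genes were 0.444, 0.515, 0.460, 0.325 and 0.240 for embryos 1 to 5. These counts are sparse, and the coefficients are given as a description only. The source of the counts was not tested.

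**Figure D2:**
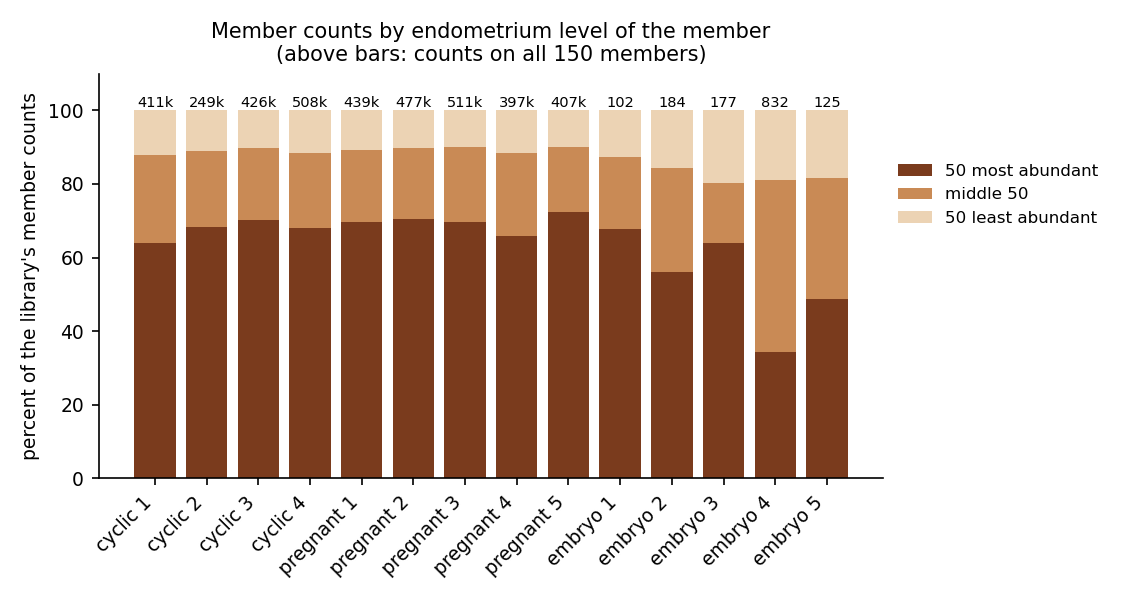
Share of a library's counts on the 150 genes that fell on the 50 most abundant, the middle 50 and the 50 least abundant of them by mean endometrium CPM, in percent, with the number of counts above each bar (k stands for 1000). The bar of embryo 1 (102 counts) resembles those of the biopsies, with 67.6% on the 50 most abundant. Embryos 2 to 5, where the choice of the genes held down the counts, have 56.0%, 63.8%, 34.3% and 48.8%.

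For the change in pregnancy, the pregnant biopsy was set against the cyclic biopsy of each mare in the edgeR likelihood ratio test across all genes. Insemination also differed between these cycles, so a response to the embryo alone cannot be told apart. Tissues other than endometrium and embryo were not compared, so restriction to the endometrium among maternal tissues was not tested. A gene was called at an adjusted p below 0.05 and a change of more than 2-fold. All 150 were among the 11892 genes tested, as their level in every biopsy ensured. That minimum level also limits the change a gene can show. The log2 change ran from -2.26 to 3.67 in the expressed set, against -4.57 to 9.19 over all genes tested. Of them 8 were called (5.33%), against 1.79% of all genes tested and 1.09% of the expressed set. Higher in pregnancy were 5 of the 150 (3.33%), against 1.14% of all genes tested, and lower were 3 of the 150 (2%), against 0.647%. The 8 genes moved the same way in all 4 mares, which holds for 29 of the 150 (16 higher and 13 lower, 19.3%) and 22% of all genes tested. Without a fold threshold 13 of the 150 passed (8.67%, against 2.84% of all tested), and the additional 5 changed by 0.69 to 0.82 upwards (2 genes) and by -0.91 to -0.76 downwards (3 genes) on the log2 scale. The number of calls depended on the test, among the 150 and among all genes. The quasi-likelihood test of edgeR called 0 of the 150 and only 1 of all 11892 genes (0.00841%), with 28 of the 150 at an unadjusted p under 0.05 and a smallest adjusted p of 0.176 among them. The Wald test of DESeq2 called 8 (against 1.99% of all genes), and the likelihood ratio test without the replicate block called 5 (against 1.51%). Without mare 1 there were 18 calls (against 3.88% of all genes), without mare 2 there were 6 of which 1 was lower (against 1.34%), and without mare 3 there were 6 (against 1.14%).

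The most changed of the 150 was ENSECAG00000008979. On the TMM-scaled CPM of this comparison (counts per 1000000 after correction for library composition) it had 28.1, 31.9, 31.5 and 70.7 in cyclic samples 1 to 4. In pregnant samples 1 to 5 it had 392, 1714, 328, 253 and 982. Every pregnant sample was thus above every cyclic sample, and pregnant samples 2 and 5 were the highest. The log2 change was 3.67 (SE 0.55), or 12.7-fold, with an adjusted p of 4.52e-06 (edgeR likelihood ratio test) and 0.209 in the quasi-likelihood test. The size rested on single mares, with 8.19-fold (log2 3.03) without mare 2 and 19.4-fold (log2 4.28) without mare 4, both called. It was higher in 4 of 4 mares, by 3.80, 5.75, 3.38 and 1.84 on the log2 scale. Embryos 1 to 5 had 2, 2, 1, 2 and 0 counts of this transcript.

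ENSECAG00000019345 had the next largest rise, with 131, 267, 53.1 and 29.5 TMM-scaled CPM in cyclic samples 1 to 4 and 468, 563, 662, 211 and 162 in pregnant samples 1 to 5. The groups overlapped because cyclic sample 2 was above pregnant samples 4 and 5, although each of the 4 mares was higher in pregnancy. The log2 change was 2.35 (SE 0.42), and its adjusted p was 5.65e-05 in edgeR's likelihood ratio test and 0.213 in its quasi-likelihood test. Without the replicate block the call was lost, with a log2 change of 1.78 and an adjusted p of 0.145. This gene had 1, 4, 6, 2 and 1 counts in embryos 1 to 5.

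The other 3 rises were smaller. The gene ranked 30 by endometrium level rose by 2.02 (SE 0.37, adjusted p = 5.31e-05 by the edgeR likelihood ratio test), from 28.4 to 40.5 TMM-scaled CPM in cyclic to 73.8 to 296 in pregnant samples, without overlap. The gene ranked 46 rose by 1.68 (SE 0.29, adjusted p = 1.32e-05), from 17.3 to 58.5 in cyclic to 56.6 to 119 in pregnant samples. In the gene ranked 13 the rise was 1.02 (SE 0.24, adjusted p = 0.00411), just past 2-fold, and without mare 3 it was no longer called (0.78, adjusted p = 0.0664), nor was it without the replicate block (0.93, adjusted p = 0.235).

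Falls were close to the 2-fold limit. ENSECAG00000009544 had 56.8, 30.8, 24.3 and 38.9 TMM-scaled CPM in cyclic samples 1 to 4 and 18.7, 13.5, 12.3, 22.5 and 17.3 in pregnant samples 1 to 5. All pregnant values lay below all cyclic ones, and it was lower in 4 of 4 mares. The log2 change was -1.14 (SE 0.22), with an adjusted p of 4.41e-05 in the likelihood ratio test and 0.176 in the quasi-likelihood test, and without mare 1 it was -0.98 and thus under 2-fold. In embryos 1 to 5 it had 1, 0, 1, 1 and 0 counts.

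ENSECAG00000019238 was more abundant, with 272.2, 245.0, 140.5 and 145.7 TMM-scaled CPM in cyclic samples 1 to 4. Pregnant samples 1 to 5 had 109, 88.3, 87.2, 82.9 and 84.8, all of them below the cyclic samples and close to each other (90.5 ± 10.6, SD, n = 5). The log2 change was -1.07 (SE 0.21, adjusted p = 9.23e-05 by the edgeR likelihood ratio test, 0.195 by its quasi-likelihood test), and it was under 2-fold without mare 1 (-0.98) or without mare 2 (-0.92). Embryos 1 to 5 held 0, 2, 2, 4 and 1 counts of it. The remaining fall, in the gene ranked 99, was -1.03 (SE 0.21, adjusted p = 0.000297), with overlapping groups and lower values in all 4 mares, and it was not called without mare 2 (-0.92), without mare 3 (-0.93) or without the replicate block (adjusted p = 0.0529). Of the genes that missed the 2-fold limit, the lowest p among those lower in all 4 mares belonged to the genes ranked 123 (log2 change -0.76, adjusted p = 0.0086, no overlap) and 58 (-0.91, adjusted p = 0.0125).

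**Figure D3:**
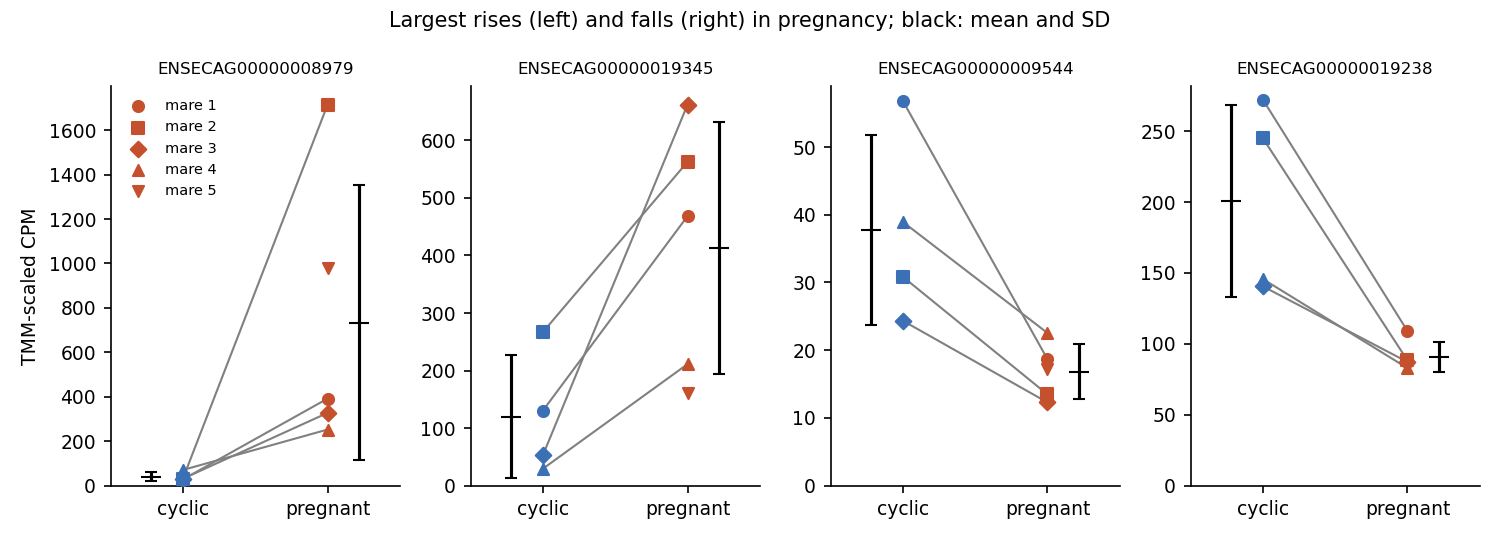
TMM-scaled CPM of the 2 genes with the largest rise and the 2 with the largest fall in pregnancy, with 1 marker per mare, grey lines joining the cycles of a mare, and mean and SD beside each group. Each of the 4 paired mares moves the same way in all 4 panels, and pregnant sample 2 of ENSECAG00000008979 reaches 1714.

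The remaining genes were not called. Over all 150 the log2 change in pregnancy ranged from -1.14 to 3.67 with a median of -0.01, against 0.00 over all genes tested, with 70 values above and 80 below 0. The changes were nevertheless wider than among other genes, since the median absolute log2 change was 0.27, against 0.17 over all genes tested and 0.15 over the expressed set. A change of more than 2-fold was fitted for 11 of the 150 (7.33%), against 3.10% of all tested genes. The standard error was wider as well, with a median of 0.29 against 0.22. Cyclic biopsies were all on the same side of the pregnant biopsies for 9 of the 150 (6%, 5 higher and 4 lower in pregnancy), against 4.02% of all genes tested.

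**Figure D4:**
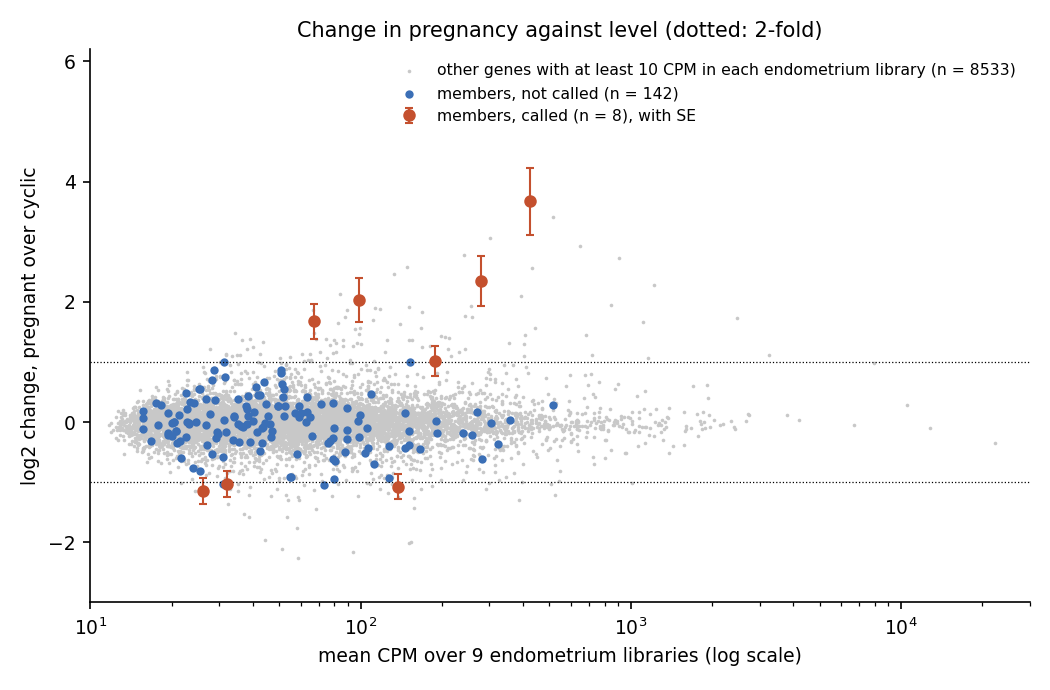
Log2 change between pregnant and cyclic endometrium against the mean endometrium CPM (log axis), with the 150 genes in colour, the called ones with their standard error, and the other genes of the expressed set in grey. The 5 rises reach up to 3.67 and the 3 falls lie just beyond the dotted 2-fold line.

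Within single mares the change was often large and differed in direction. Pregnant and cyclic samples of the same mare were more than 2-fold apart for 34 of the 150 genes in mare 1, 35 in mare 2, 49 in mare 3 and 12 in mare 4. Over all genes tested the corresponding shares were 7.89%, 13.0%, 11.2% and 4.19%, against 22.7%, 23.3%, 32.7% and 8% of the 150. The median log2 difference over the 150 was 0.09 in mare 1, -0.32 in mare 2, 0.10 in mare 3 and 0.07 in mare 4, so mare 2 was lower in pregnancy where the others were slightly higher.

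The 150 genes varied more between biopsies than the rest of the expressed set. The highest CPM exceeded the lowest 3.50-fold in the median gene (1.51-fold to 58.7-fold), against 1.80-fold in the expressed set. A ratio of more than 4-fold was found for 64 of the 150 (42.7%), against 7.41% of the expressed set, and of more than 10-fold for 6 (4%), against 0.875%. Without cyclic sample 3 the median ratio was 2.52-fold, against 1.72-fold, and 38 genes exceeded 4-fold (25.3%, against 4.34%). These ratios are a description, since the choice required at least 10 CPM in every biopsy and no test was made.

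**Figure D5:**
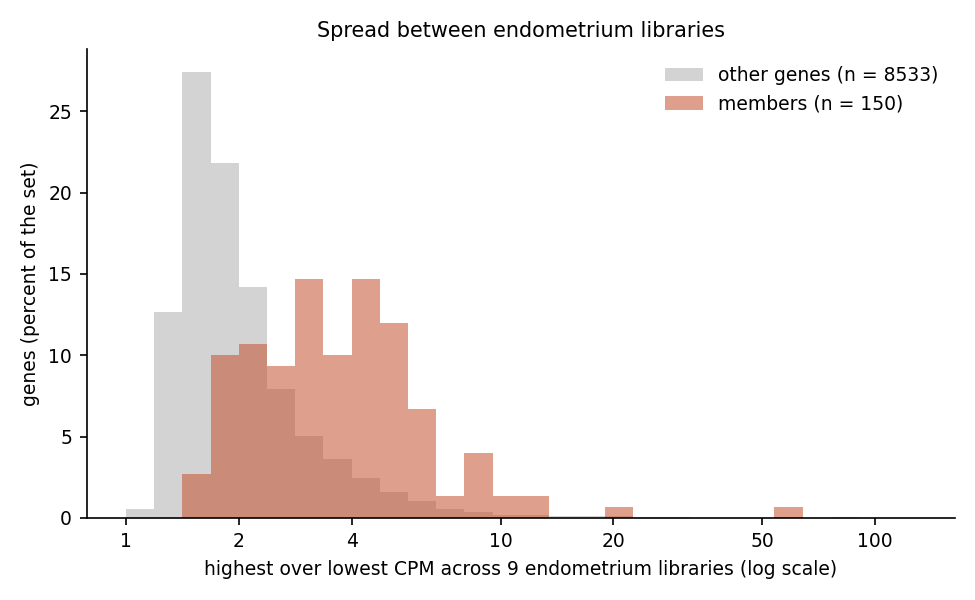
Distribution of the ratio of the highest to the lowest CPM over the 9 endometrium libraries (log axis), as percent of the 150 genes and of the other genes of the expressed set. The 150 lie further to the right, with a median of 3.50-fold against 1.80-fold over the whole expressed set, and reach 58.7-fold.

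The spread was larger among cyclic than among pregnant samples. The median ratio of the highest to the lowest CPM was 2.82-fold within the 4 cyclic samples and 2.03-fold within the 5 pregnant samples, against 1.61-fold and 1.44-fold in the expressed set. The standard deviation of log2 CPM was larger in cyclic samples for 111 of the 150 genes (74%), against 74.9% of the expressed set. Without cyclic sample 3 the median ratio was 1.82-fold within the 3 cyclic samples left, below the 2.03-fold within the 5 pregnant samples. Because such a ratio shrinks with fewer samples, the standard deviations were also compared without cyclic sample 3. Their median was 0.664 over the 4 cyclic samples, 0.458 over the 3 left and 0.404 over the 5 pregnant samples. By this measure the direction was kept, and the difference became smaller. In the expressed set these medians were 0.312, 0.282 and 0.213.

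Cyclic sample 3 was the lowest of the 9 biopsies for 51 of the 150 genes (34%), against 19.6% of the expressed set, and 41 genes lay there more than 2-fold below their median. Cyclic sample 1 was the highest for 36 genes (24%), against 17.8%. Between these samples 81 of the 150 genes differed more than 2-fold (54%, against 15.1% of the expressed set), 53 of them higher in cyclic sample 1 and 28 higher in cyclic sample 3. These 2 biopsies of the same group were named after their values were seen. In a principal component analysis of log2 CPM over the 150 genes, cyclic sample 3 (0.75) and cyclic sample 1 (-0.45) lay at the ends of the leading component, which carried 38.7% of the variance. The second held 22.9%, with cyclic samples between 0.20 and 0.48 and pregnant samples between -0.46 and 0.01. Without cyclic sample 3 the leading component held 33.9% and ran from cyclic sample 1 (0.68) to pregnant sample 5 (-0.49), with the other cyclic samples at 0.12 and 0.24 and pregnant sample 4, at 0.18, between them. What set these biopsies apart, including the makeup of each biopsy by cell type, was not tested.

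The genes with the widest spread followed different patterns. Apart from the called genes ranked 1, 2 and 4 by spread, the widest was that of the gene ranked 3, with 23.5, 41.9, 119 and 285 CPM in cyclic samples 1 to 4 and 43.8, 23.4, 95.4, 186 and 69.9 CPM in pregnant samples 1 to 5. Both samples of mare 4 were the highest of their group, and both samples of mare 3 came next. The gene ranked 5 had 331, 122, 33.7 and 238 CPM in cyclic and 79.2, 47.8, 32.7, 210 and 54.0 CPM in pregnant samples, so that mare 3 was low and mare 4 high in both cycles. The gene ranked 6 was the opposite in these mares, with 131 CPM in cyclic and 104 CPM in pregnant sample 3 against 41.6 and 13.0 CPM in mare 4. At the other end, the most even gene lay between 28.4 and 42.8 CPM, a ratio of 1.51-fold, and the next lay between 62.5 and 96.4 CPM (1.54-fold) and between 17.9 and 29.3 CPM (1.64-fold).

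The deviations of the 150 genes from their group means were compared between the cycles of a mare. Across the 150 genes the cyclic and pregnant deviations of mares 1 to 4 correlated with -0.11, 0.20, 0.52 and 0.62, against -0.51 to 0.36 (mean -0.11) between a cyclic and a pregnant sample of different mares. The group means were taken over mares 1 to 4, so the deviations of a gene cancel within a group. The negative mean between different mares follows from this and is not an observation of its own. Over all genes tested the values were 0.12, 0.08, 0.57 and 0.57. Mares 3 and 4 thus lay above all values between different mares, and mares 1 and 2 within their range. The value of mare 3 rests on cyclic sample 3, and whether the animal or the handling of its samples was shared was not tested.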

How the data were processed

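Messenger RNA libraries of 4 cyclic endometrium, 5 pregnant endometrium and 5 embryo samples were analysed. The authors deposited raw read counts per Ensembl gene. Their reads had been trimmed with cutadapt 1.11 and mapped in CLC Genomics Workbench to EquCab, the horse genome with its Ensembl gene models. How strand and multiply mapped reads were handled is not given in the sources used here, so that counts of overlapping genes and near-identical copies are uncertain.

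CPM was computed on library totals of 21.8 to 240 M counts (M stands for 1000000), and the level of 3 counts ranged from 0.0125 to 0.138 CPM. Intervals and floors cover counting error only. No pair of libraries agreed within sampling noise (smallest chi-square per degree of freedom 52.1 over 91 pairs).

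Pregnant and cyclic endometrium were compared in R 4.3.3 with edgeR 4.0.16 over all genes with more than 4 CPM in at least 4 biopsies, with TMM factors recomputed on the kept genes, the likelihood ratio test and Benjamini-Hochberg adjustment. The mare, taken from the replicate number, was a block, as the study states that mares were their own controls. Deviations from group means of the same mare correlated with 0.08 to 0.57 over all tested genes, against -0.51 to 0.23 between different mares. Mares 1 and 2 (0.12 and 0.08) lay within the latter range. Pregnant sample 5 had no partner and added to filter and scaling only. Alternatives were DESeq2 1.42.0, the quasi-likelihood test, other scalings, filters and blocks, and the omission of each mare. The genes, the naming rule and the lists were chosen with earlier results of these data known. Lists of tissue and pathway genes were not used, as identifiers were not paired with symbols here. Genes were described if they were among the 10 most abundant, called, among the 5 widest or 3 narrowest in spread, or among the 5 with most counts in embryo 1, and identifiers were limited to 2 rises and 2 falls. The study's supplementary tables, which hold its own comparisons, were left aside, also as a source of symbols.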

Additional observations from a re-analysis of the deposited data

Results flagged for a closer look

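Within 42 groups of values (shares of counts on the 150 genes, their detection in embryos, and levels of the called and most abundant genes), the gap of the highest and of the lowest sample to the next value was examined. A distant sample was found in 2 groups, where an assumed rate of 1 group in 20 would give about 2.1. The groups share libraries and are not independent, so this number is a rough guide. For ENSECAG00000008979, cyclic sample 4 had 70.7 TMM-scaled CPM, against 31.9 in the next cyclic sample, a gap of 0.911 of the range of the group, and the rise of mare 4 was the smallest of the 4. For ENSECAG00000019238, pregnant sample 1 had 109 TMM-scaled CPM, against 88.3 in the next sample, a gap of 0.793 of the range.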

How the results depend on the processing

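The quasi-likelihood test with no replicate block and the values without cyclic sample 3 were alternatives chosen after seeing the data. The 8 calls among the 150 genes (5 higher and 3 lower) became 0, with 0 higher and 0 lower, when edgeR's quasi-likelihood test was used, both with the replicate block and with no block (28 and 23 genes had an unadjusted p under 0.05). These tests called 1 (0.00841%) and 19 (0.160%) of all 11892 genes. The likelihood ratio test with no replicate block called 5, of which 3 were higher, and 13 passed with no fold threshold, of which 6 were lower. Leaving out 1 mare gave 6 calls to 18 (without mare 1), from 4 to 9 higher and from 1 (without mare 2) to 9 lower. The other scalings, filters and DESeq2 gave the same 8 genes. In 112 tests of these 8 genes, 87 kept the call, 25 lost it and 0 changed direction. The median log2 change stayed between -0.11 and 0.10.

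With a minimum of 5 or 20 CPM in the endometrium, 79 or 77 of the 150 genes were kept, and under the other choices between 127 and 150. All 150 were kept when embryo 1 was added, which could not remove any. On library totals they reached at most 0.135 CPM there, below the limit of 0.213 CPM. In embryo 1 the 11 genes with 3 counts became 59 at 1 count and 0 at 10 counts, and the share of 0.000229% became 0.00277% outside the 10 most counted genes. Depth limits single genes there, where 1 count is 0.271 per 1000000 of these. The median ratio of highest to lowest CPM, 3.50-fold, was 2.03-fold within pregnant samples and 2.40-fold to 3.44-fold without a replicate. The cause of these changes was not tested.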
